A study of Homo sapiens with 6 samples.

Results

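The histone genes described here are 6 of the 6831 genes in the authors' deposited comparison of DEG-35-treated with DMSO-treated MOLM-13 cells. HIST1H2BK, HIST1H2BD, HIST1H2AC and HIST2H2AC encode core histones of the replication-dependent class, and H2AFZ and H2AFX encode the H2A variants H2A.Z and H2A.X. They were taken by symbol, as rows of the table, with their values in it known, so those values are given as a description and no test was made on them. MOLM-13 is an established human line of acute myeloid leukaemia, and the labels give its genotype as WT. The treated cells received 50 nM DEG-35, which the study's title names as a degrader of both IKZF2 and CK1A, for 24 h. The control cells received the solvent DMSO for 24 h. Each group had 3 RNA-seq libraries from the same line, and nothing in the labels says whether the 3 were separate cultures, so the p-values measure the spread between these libraries, which may be technical.

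The deposited table holds 1 log2 fold change, p-value and adjusted p-value per gene and no value per library, so levels and replicate values cannot be shown and the depth is unknown. It lists genes with an adjusted p below 0.05. From the way its adjusted p-values follow the raw ones, 15064 genes had been tested, of which 45.3% were listed, 21.4% as higher and 24.0% as lower with DEG-35. Fold changes were read as DEG-35 over DMSO, which the header does not state, and every direction below would turn round under the other order. The error given with each value is the standard error (SE) implied by the fold change and its p-value. Of 8 MOLM-13 lineage markers 6 were listed and of 5 markers of other blood cells none was, but without levels this does not check the cell type. In bulk RNA, fewer cells in a phase of the cell cycle and less RNA per cell cannot be told apart.

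Histones are the proteins that package DNA into nucleosomes, in which an H3-H4 tetramer and a pair of H2A-H2B dimers form the core and H1 binds the linker. Replication-dependent histone genes lie in clusters, are transcribed mainly in S phase, and mostly give short mRNAs that end in a conserved stem-loop and carry no poly(A) tail. Stem-loop binding protein (SLBP) holds that stem-loop through processing, export and translation of the mRNA. Some of these genes also give longer, polyadenylated transcripts, which have been described in cells that leave the cell cycle. Variant histones are made outside the clusters from ordinary polyadenylated mRNAs, and H2AFX is known to use both kinds of 3' end.

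Both H2B members were higher with DEG-35. HIST1H2BK, which encodes an H2B, was 7.22-fold higher in the authors' deposited table, with a log2 value of 2.85 ± 0.112 (± implied SE; adjusted p = 1.36e-141). Its 95% interval from that SE ran from 2.63 to 3.07 on the log2 scale. HIST1H2BD, another H2B gene, was 6.07-fold higher in the authors' deposited table, at 2.60 ± 0.308 (adjusted p = 3.72e-16), with an interval of 2.00 to 3.21. HIST1H2BK was thus the better determined of the pair, and its interval lies inside that of HIST1H2BD. By log2 fold change HIST1H2BK ranked 41 from the top of all 6831 listed genes and HIST1H2BD ranked 50 in the authors' deposited table. Within the 5954 genes whose implied SE did not exceed 0.2, HIST1H2BK ranked 4 from the top of the authors' deposited table, just below GGT5 at 2.86 and above ACTA2-AS1 at 2.62. No likeness across samples can be computed from 1 comparison, so these neighbours share a size of change and no more.

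The H2A members of the replication-dependent class stood at opposite ends. HIST1H2AC, an H2A gene of the large cluster on chromosome 6, was 7.46-fold higher in the authors' deposited table, at 2.90 ± 0.410 (log2 scale) with an adjusted p of 1.48e-11 and an interval of 2.10 to 3.70. HIST2H2AC, an H2A gene of the smaller cluster on chromosome 1, was 7.18-fold lower in the authors' deposited table, at -2.84 ± 1.03 (adjusted p = 0.0145). The interval of HIST2H2AC, from -4.86 to -0.83 in the authors' deposited table, was the widest of the 6 members, and its call does not hold at an adjusted p of 0.01. HIST1H2AC ranked 37 from the top and HIST2H2AC ranked 10 from the bottom of the 6831 genes by log2 fold change in the authors' deposited table.

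Both H2A variant members were lower with DEG-35. H2AFZ encodes H2A.Z, a variant placed near transcription start sites by dedicated remodelling complexes. In the authors' deposited table H2AFZ was 3.80-fold lower, at -1.93 ± 0.0541 with an adjusted p of 8.02e-274, and its p-value ranked 8 from the smallest of all listed genes. H2AFX encodes H2A.X, which is phosphorylated around DNA double-strand breaks. In the authors' deposited table H2AFX was 2.35-fold lower, at -1.23 ± 0.150 with an adjusted p of 2.26e-15. The intervals of these variants did not overlap, with -2.03 to -1.82 for H2AFZ and -1.53 to -0.94 for H2AFX in the authors' deposited table. Among the better determined genes of the authors' deposited table, RRM1 at -1.92 and FANCI at -1.93 stood next to H2AFZ, and KAZALD1 at -1.23 and USP37 at -1.24 stood next to H2AFX. All 6 members changed by 1 or more on the log2 scale, a size that 4.23% of tested genes reached upward and 4.08% downward, and nothing is read from this because the members were chosen on the same contrast.

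**Figure D1:**
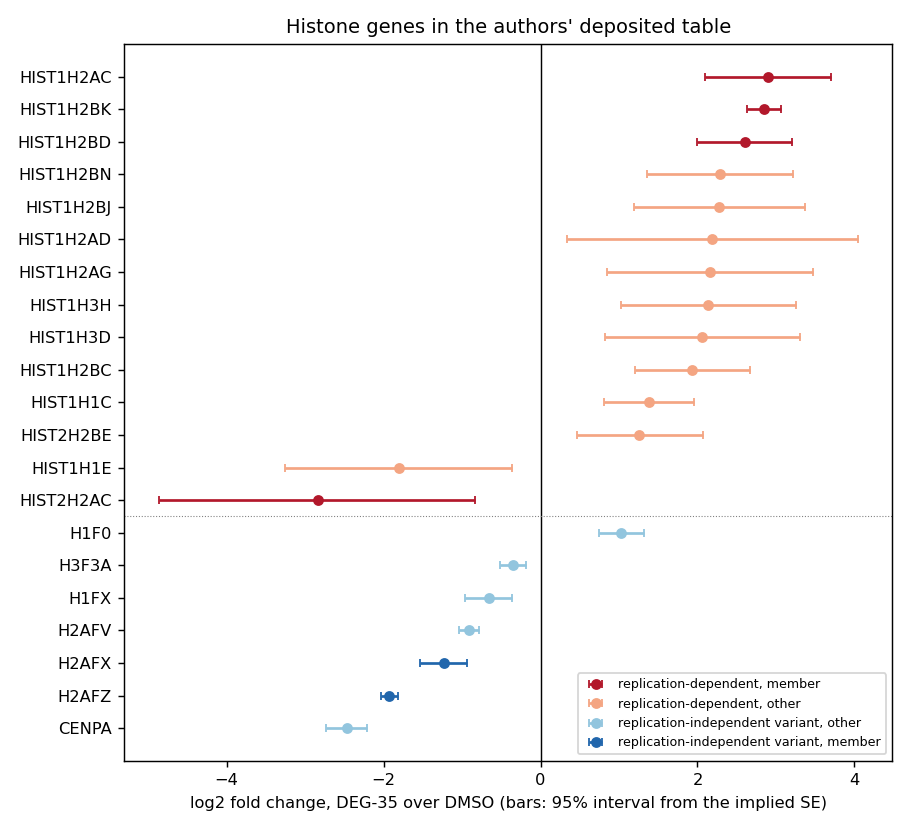
Log2 fold change (DEG-35 over DMSO, x axis) of the 21 listed histone genes, with bars for the 95% interval from the implied SE; members of the set are in dark colours and the dotted line parts replication-dependent genes (above) from replication-independent variants (below). HIST1H2BK, HIST1H2BD and HIST1H2AC lie between 2.60 and 2.90, HIST2H2AC at -2.84, and H2AFZ and H2AFX at -1.93 and -1.23.

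The listed genes of the replication-dependent class were higher in 12 of 14 cases. As a share of the 70 annotated genes, the higher ones did not exceed the share over all tested genes. Of 70 replication-dependent histone genes 14 were listed (20.0%, against 45.3% of all tested genes). The 12 higher genes are 17.1% of the class, below the 21.4% of all tested genes, and the 2 lower genes are 2.86%, below the 24.0% of all tested genes. For the other 56 the table cannot say whether they were tested. The shares of the class are thus over annotated genes, and its share among tested genes is unknown. The same holds for every list below. The median log2 fold change of the 14 was 2.15, against -0.19 for all listed genes. These medians are not like measures, because most of the 14 were measured so imprecisely that only large changes could be listed. Without the 4 members, 9 of 66 were higher (13.6%) and 1 was lower, with a median of 2.10 over those listed.

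Of 12 replication-independent variant genes 7 were listed (58.3%, against 45.3% of all tested genes), of which 6 were lower and 1 higher (median -0.91). The 6 lower genes are 50.0% of this class, against 24.0% of all tested genes. Without H2AFZ and H2AFX, 4 of 10 were lower (40.0%) and 1 was higher. The difference between the classes was not tested.

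By histone type, H2B genes made up the largest part of the listed replication-dependent class. Of 18 H2B genes 6 were listed, and all 6 were higher (33.3%, against 21.4% of all tested genes), with a median log2 fold change of 2.28. Without both H2B members, which were chosen on these values, 4 of 16 were higher, a share close to the background. Beside the H2B members these were HIST1H2BN at 2.29 ± 0.474, HIST1H2BJ at 2.28 ± 0.558, HIST1H2BC at 1.93 ± 0.375 and HIST2H2BE at 1.26 ± 0.412 in the authors' deposited table. Of 17 H2A genes 4 were listed (23.5%, below the 45.3% of all tested genes). Of these 3 were higher (17.6% of the H2A genes, against 21.4%) and 1 was lower (5.88%, against 24.0%). The listed H2A genes outside the set were HIST1H2AD at 2.19 ± 0.944 and HIST1H2AG at 2.16 ± 0.668 in the authors' deposited table. Of 14 H3 genes 2 were listed (14.3%, below the 45.3% of all tested genes), HIST1H3H at 2.14 ± 0.567 and HIST1H3D at 2.06 ± 0.637 in the authors' deposited table. Linker histone genes were split, with HIST1H1C higher at 1.38 ± 0.289 and HIST1H1E lower at -1.81 ± 0.738 in the authors' deposited table, and 4 of 6 not listed. Their listed share was 33.3%, the same as that of the H2B genes and below the 45.3% of all tested genes. None of the 15 H4 genes was listed, against 45.3% of all tested genes. Differences between the types were not tested. HIST1H2AD (adjusted p = 0.0456 in the authors' deposited table) lay closest to the threshold of 0.05, and no value is known for genes beyond it.

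These replication-dependent genes were measured less precisely than most. Of the 14, HIST1H2BK alone had an implied SE no larger than 0.2, while the median over all listed genes was 0.0891. A gene with an implied SE of 0.5 enters the table only if its log2 fold change is 1.14 or more in size, against 0.23 for an SE of 0.1, so small changes of the other 13 could not have been listed. The table holds 874 genes whose implied SE exceeds 0.2, and 613 of them (70.1%) were higher. The part of this imbalance in the count of 12 higher and 2 lower was not tested.

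**Figure D2:**
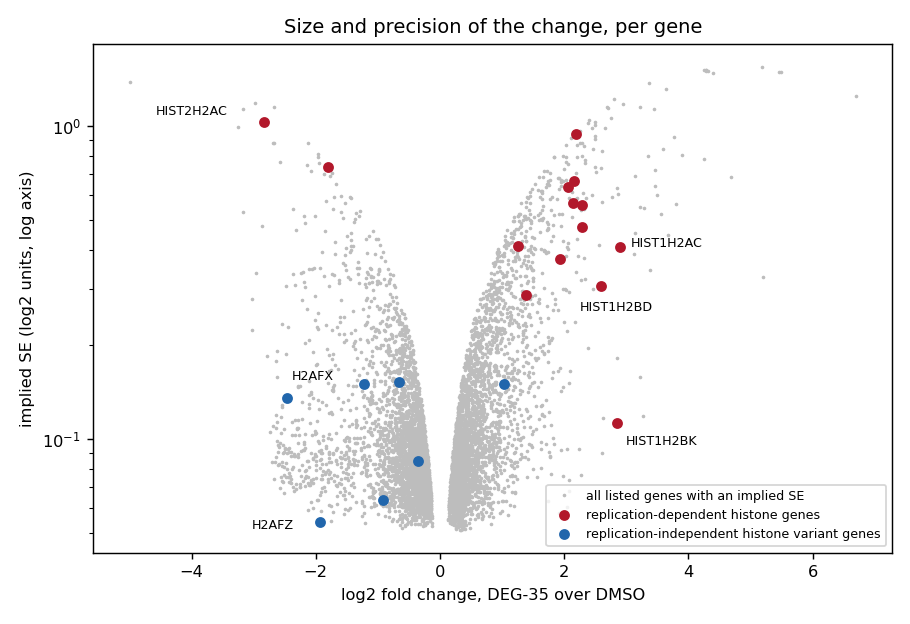
Log2 fold change (x axis) against the implied SE (y axis, log scale) for each listed gene, with replication-dependent histone genes in red and replication-independent variants in blue. HIST1H2BK has an SE of 0.112, whereas the other replication-dependent genes have SEs of 0.289 to 1.03, and the variants lie between 0.0541 and 0.152.

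Of the 10 variant genes outside the set 4 were lower, 1 was higher and 5 were not listed. CENPA, the H3 variant that marks centromeres, was 5.55-fold lower in the authors' deposited table, at -2.47 ± 0.135. H2AFV, which encodes the second H2A.Z protein, stood at -0.91 ± 0.0637 in the authors' deposited table, a smaller change than that of H2AFZ with intervals that do not overlap. H1FX, a linker histone gene, stood at -0.66 ± 0.152, and H3F3A, a gene of the H3.3 variant, at -0.35 ± 0.0846 in the authors' deposited table. The pseudogene H3F3AP4 carries the same values, so whether they belong to H3F3A alone is unknown. H1F0, which encodes the linker histone H1.0 known to accumulate in cells that stop dividing, was the exception, 2.04-fold higher at 1.03 ± 0.149 in the authors' deposited table. H2AFJ, H2AFY, H2AFY2, H3F3B and H3F3C were not listed.

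The 3' ends annotated for these genes were examined because they decide which histone transcripts a poly(A)-based method can see, and the labels name an mRNA library kit without saying how it selects RNA. The histone stem-loop is a run of 16 bases, searched for by its consensus past the stop codon in GENCODE release 29 transcripts of GRCh38. The 3 examples below show the stem of a higher H2A gene, a higher H2B gene and a lower variant, with the stem arms in capitals and the loop in lower case.
HIST1H2AC: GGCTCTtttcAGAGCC
HIST1H2BD: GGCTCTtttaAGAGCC
H2AFX: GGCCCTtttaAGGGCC
In HIST1H2AC the annotated transcript of 1654 bases runs 1114 bases past the stem-loop, and in H2AFX the transcript of 1614 bases runs 1044 bases past it. HIST1H2BD has a transcript of 496 bases that ends 39 bases past its stem-loop and another of 789 bases that lacks the stem-loop and ends near a poly(A) signal. H2AFZ, with a transcript of 979 bases, has a poly(A) signal and no stem-loop match. The GENCODE models of HIST1H2BK and HIST2H2AC end at the stop codon, so their 3' ends cannot be read from them, and RefSeq gives HIST1H2BK 2 curated transcripts over a gene span of 8566 bases.

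A long, polyadenylated form is annotated for part of the replication-dependent genes. A gene was counted when a GENCODE coding transcript ran at least 200 bases past the stop codon and had AATAAA or ATTAAA in its last 50 bases, a definition set after the transcripts had been seen. Such a form was found for 8 of the 12 higher genes (66.7%), 0 of the 2 lower genes and 11 of the 56 genes not listed (19.6%). The higher genes with it were HIST1H2AC, HIST1H2AG, HIST1H2BC, HIST1H2BD, HIST1H2BJ, HIST1H2BN, HIST1H3H and HIST2H2BE. HIST1H2BN counts only through a transcript with a coding part of 501 bases, against 381 in its other models. HIST1H2AC and HIST1H2BD are members, which were chosen with their values known. RefSeq lists at least 2 curated transcripts for 4 of the 12 higher genes, HIST1H2BC, HIST1H2BD, HIST1H2BK and HIST1H3D, and for 2 of the 56 not listed. Both counts are descriptions with no test of the difference. The models differ in completeness, since all those of 4 of the 12 higher genes and 29 of the 56 genes not listed end at the stop codon, where no 3' end can be read, and the part of this in the counts was not tested. The table gives values per gene, so which form of a gene changed was not measured.

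**Figure D3:**
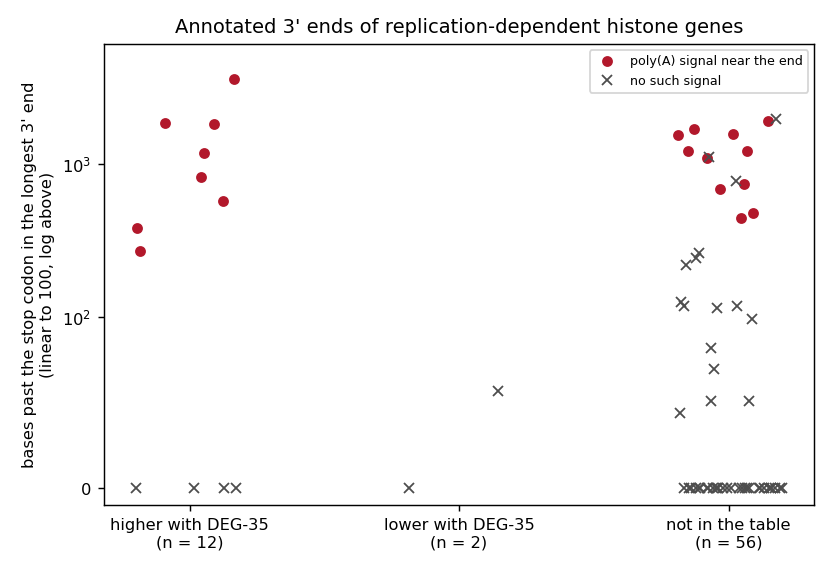
Bases past the stop codon in the longest annotated 3' end (y axis, linear to 100 and log above) of each of the 70 replication-dependent histone genes, grouped by the authors' call; red points have a poly(A) signal near the end of a transcript with at least 200 bases past the stop codon. Of the 12 higher genes 8 are red, against 11 of the 56 not listed.

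The members differ in how much of their annotated sequence occurs in other genes. Of the 50-base windows in the coding-only model of HIST1H2BK, 74.1% (246 of 332) occur in a transcript of another gene on either strand, 204 of them in H2BFS and 62 in HIST1H2BE. For HIST2H2AC the share was 30.5% (104 of 341), with 104 windows each in HIST2H2AA3 and HIST2H2AA4, and its coding sequence is 94.1% identical to both. The share was 7.85% for H2AFZ, of which 60 windows were in H2AFZP3, and 5.36% for HIST1H2BD. It was 0.424% for HIST1H2AC and 0.319% for H2AFX. H2BFS, HIST1H2BE, HIST2H2AA3 and HIST2H2AA4 were not listed. The sources at hand did not state how the authors assigned reads that match several genes. Nor did they state how long the reads were or whether strand was used. The models of HIST1H2BK and HIST2H2AC hold coding sequence alone, while those of the other members run past the stop codon. The shares are therefore not like measures and do not rank the members. How far the values of HIST1H2BK and HIST2H2AC hold reads of other genes is unknown. HIST1H2AD lies within the RefSeq span of HIST1H3D on the same strand. HIST1H2BK overlaps HIST1H4I, which was not listed, on the opposite strand within its RefSeq span. These spans run from gene start to gene end and include introns, and overlap of exons was not examined. Whether reads of either pair can be told apart is therefore unknown.

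Many H2A and H2B genes lie head to head and share the stretch between their starts, which allows the calls of such neighbours to be set side by side. Among the 70 genes, 13 such pairings with starts at most 500 bases apart were found in RefSeq, counting HIST1H2BF with both HIST1H2AD and HIST1H3D. In 3 pairings both genes were listed, in 4 a single gene was, and in 6 neither was. HIST1H2AC and HIST1H2BC, whose starts are 246 bases apart, were both higher, at 2.90 and 1.93 in the authors' deposited table. HIST1H2AG and HIST1H2BJ, 248 bases apart, were both higher too, at 2.16 and 2.28 in the authors' deposited table. HIST2H2AC and HIST2H2BE, 236 bases apart, went in opposite directions, at -2.84 and 1.26 in the authors' deposited table. HIST1H2AH, the neighbour of HIST1H2BK at 248 bases, was not listed.

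The promoters of the 6 members are shown because the genes that moved in opposite directions carry partly the same motifs. Each window, from RefSeq on GRCh38.p14, holds 250 bases before to 50 after the annotated start, 5' to 3' on the gene's strand, and for the genes with 2 windows the one reaching farthest upstream is given. All 6 members matched a window. The windows are chr6:27146809-27147108 (minus strand) for HIST1H2BK, chr6:26157871-26158170 (plus) for HIST1H2BD, chr6:26123922-26124221 (plus) for HIST1H2AC, chr1:149886668-149886967 (plus) for HIST2H2AC, chr4:99950226-99950525 (minus) for H2AFZ and chr11:119095416-119095715 (minus) for H2AFX. Capitals mark 4 kinds of motif on either strand, and matches that touch or overlap run together. The TATA box was searched for as TATAAA. The CCAAT box was searched for by the letters of its name. The octamer was ATTTGCAT. The E2F sites were TTTGGCGC, TTTCGCGC, TTCCCGCC and TTTCCCGC.
HIST1H2BK: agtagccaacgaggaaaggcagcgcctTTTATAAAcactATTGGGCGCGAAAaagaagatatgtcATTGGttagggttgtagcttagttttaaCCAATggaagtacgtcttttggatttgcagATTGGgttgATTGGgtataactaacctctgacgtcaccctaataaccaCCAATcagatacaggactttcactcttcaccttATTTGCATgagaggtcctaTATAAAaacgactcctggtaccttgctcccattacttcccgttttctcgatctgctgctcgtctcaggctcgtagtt
HIST1H2BD: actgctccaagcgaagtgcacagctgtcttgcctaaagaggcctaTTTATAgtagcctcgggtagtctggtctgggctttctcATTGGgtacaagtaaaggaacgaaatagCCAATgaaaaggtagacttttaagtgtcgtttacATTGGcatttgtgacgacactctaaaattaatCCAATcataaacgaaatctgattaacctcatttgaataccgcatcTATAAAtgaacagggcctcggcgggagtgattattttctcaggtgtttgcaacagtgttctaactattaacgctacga
HIST1H2AC: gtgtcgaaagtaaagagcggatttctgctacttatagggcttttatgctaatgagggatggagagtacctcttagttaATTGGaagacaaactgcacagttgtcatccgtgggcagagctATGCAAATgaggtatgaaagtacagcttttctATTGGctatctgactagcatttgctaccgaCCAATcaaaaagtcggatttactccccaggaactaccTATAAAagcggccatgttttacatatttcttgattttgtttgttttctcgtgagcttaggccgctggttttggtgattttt
HIST2H2AC: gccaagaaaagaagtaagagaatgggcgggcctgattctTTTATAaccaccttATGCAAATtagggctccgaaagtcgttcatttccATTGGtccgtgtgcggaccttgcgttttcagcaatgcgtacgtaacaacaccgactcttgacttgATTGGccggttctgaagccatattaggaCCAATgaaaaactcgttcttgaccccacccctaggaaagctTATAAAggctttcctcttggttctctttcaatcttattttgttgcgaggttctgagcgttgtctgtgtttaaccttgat
H2AFZ: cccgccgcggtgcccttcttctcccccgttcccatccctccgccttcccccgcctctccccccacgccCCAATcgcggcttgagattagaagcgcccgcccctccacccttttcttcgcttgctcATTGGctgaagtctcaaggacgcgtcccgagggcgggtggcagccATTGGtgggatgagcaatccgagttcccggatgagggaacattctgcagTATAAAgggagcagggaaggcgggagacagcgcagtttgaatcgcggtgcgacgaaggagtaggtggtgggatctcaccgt
H2AFX: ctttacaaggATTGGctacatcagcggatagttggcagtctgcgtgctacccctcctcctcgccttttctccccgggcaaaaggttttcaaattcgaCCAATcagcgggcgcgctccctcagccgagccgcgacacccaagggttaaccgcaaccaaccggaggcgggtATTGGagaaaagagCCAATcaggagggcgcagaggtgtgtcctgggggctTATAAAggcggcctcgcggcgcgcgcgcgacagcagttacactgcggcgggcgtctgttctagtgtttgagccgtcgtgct
A TATA box and at least 3 CCAAT boxes, counted on both strands, were found in all 6, whether the gene was higher or lower. Of all 35116 windows of this length in the table, 11.5% hold a TATA box and 34.6% a CCAAT box. The octamer, a binding motif of OCT1 known from H2B promoters, was found in HIST1H2BK, HIST1H2AC and HIST2H2AC, and in 1.77% of all windows. An E2F site was found in HIST1H2BK alone of the 6, and in 5.03% of all windows. The CHR motif, searched for as TTTGAA or TTCGAA, was found in HIST1H2BD, H2AFZ and H2AFX and in 16.4% of all windows. Of the 65 replication-dependent genes with a window, 66.2% hold a TATA box, 84.6% a CCAAT box, 40.0% the octamer, 33.8% an E2F site and 35.4% the CHR motif. Genes that lie head to head share most of their windows, so 1 site can count for both. These matches are letters in a window and say nothing of whether a factor binds there.

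Genes that act on histone genes and histone mRNA were mostly lower. Of 16 genes of histone transcription and histone mRNA 3' processing 13 were listed (81.2%, against 45.3% of all tested genes), of which 12 were lower (75.0%, against 24.0% of all tested genes) and 1 higher. Their median log2 fold change was -0.88, against -0.19 for all listed genes. The kinase gene CDK2, at -1.63 ± 0.0719, and its partner CCNE2 (cyclin E2), at -1.78 ± 0.0868, which activate histone transcription at the start of S phase, fell in the authors' deposited table. SLBP was 2.20-fold lower in the authors' deposited table, at -1.14 ± 0.0652. CASP8AP2, which encodes the 3' processing factor FLASH, stood at -1.28 ± 0.0779 in the authors' deposited table. NPAT, the coactivator of the histone clusters, stood at -0.89 ± 0.0782 in the authors' deposited table, and MIF4GD, whose product joins SLBP in translation, was the 1 higher gene, at 0.23 ± 0.0905.

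Histone chaperones, which carry histones to DNA, showed the largest falls among the partner genes. Of 20 genes 16 were listed (80.0%, against 45.3% of all tested genes). Of the list 15 were lower (75.0%, against 24.0% of all tested genes) and 1 was higher. Their median log2 fold change was -1.05, against -0.19 for all listed genes. ASF1B, an H3-H4 chaperone, was 5.38-fold lower at -2.43 ± 0.0777 in the authors' deposited table. HJURP, the chaperone of CENPA, was 5.72-fold lower at -2.52 ± 0.0904 in the authors' deposited table, beside the fall of CENPA itself. The subunits CHAF1A, at -1.91 ± 0.0740, and CHAF1B, at -2.05 ± 0.0860, of the replication-coupled assembly factor CAF-1 fell in the authors' deposited table. ATRX, which acts with DAXX in H3.3 deposition, was the 1 higher gene, at 0.54 ± 0.0732 in the authors' deposited table. HIRA and UBN1, of the replication-independent H3.3 chaperone complex, stood at -0.35 ± 0.0650 and -0.31 ± 0.0630 in the authors' deposited table, smaller changes than those of the CAF-1 subunits.

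The listed factors that place or remove H2A.Z had smaller changes than H2AFZ, between -0.88 and -0.15 on the log2 scale. Of 12 genes 6 were listed, a share of 50.0% that is close to the 45.3% of all tested genes. All 6 were lower (median -0.48), which is 50.0% of the list, against 24.0% of all tested genes called lower. ANP32E, the chaperone that removes H2A.Z, stood at -0.88 ± 0.0672 in the authors' deposited table. ACTL6A at -0.72 ± 0.0670, YEATS4 at -0.60 ± 0.0702 and EP400 at -0.36 ± 0.0587, subunits of H2A.Z-depositing complexes, were also lower in the authors' deposited table. SRCAP, VPS72 and INO80 were not listed. Of 12 kinases, readers and phosphatases of H2A.X 5 were listed, 41.7%, which is close to the 45.3% of all tested genes. The 4 lower genes are 33.3% of this list, against 24.0% of all tested genes, and 1 was higher. The DNA-damage kinase gene PRKDC stood at -0.61 ± 0.0553, the H2A.X tyrosine kinase gene BAZ1B at -0.70 ± 0.0651 and the ubiquitin ligase gene RNF168 at -0.93 ± 0.104 in the authors' deposited table. The ubiquitin ligase gene RNF8 stood at -0.45 ± 0.0788 and ATM, the main kinase of H2A.X at breaks, was higher at 0.23 ± 0.0711 in the authors' deposited table. The table measures mRNA, so phosphorylated H2A.X was not measured.

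**Figure D4:**
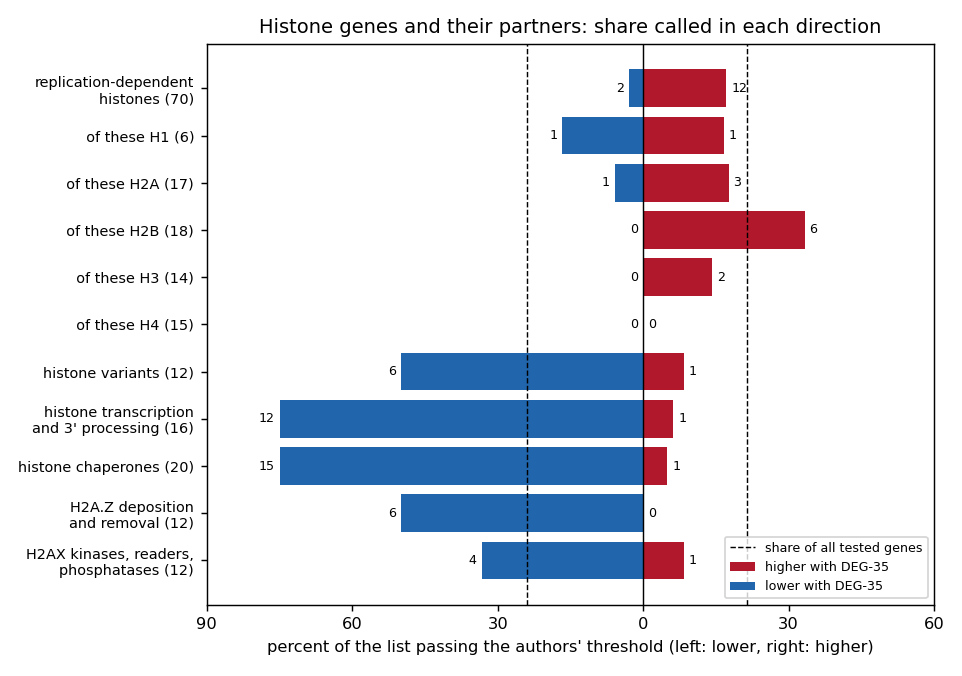
Percent of each gene list listed as lower (left) and higher (right) with DEG-35; numbers in brackets give the list size, numbers at the bars the genes, and dashed lines the shares of all tested genes, 24.0% lower and 21.4% higher. Replication-dependent histone genes have 12 higher and 2 lower, H4 genes none, and the lists of variants and partners extend to the left.

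**Figure D5:**
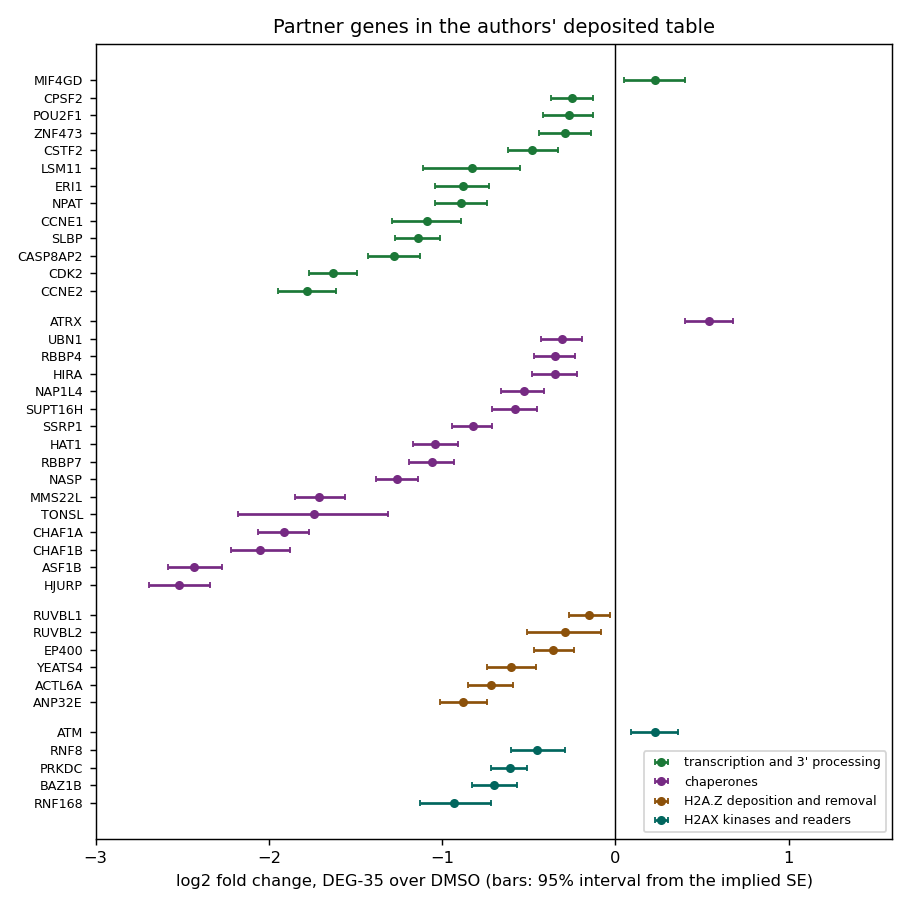
Log2 fold change (DEG-35 over DMSO) of the 40 listed partner genes in 4 groups, with bars for the 95% interval from the implied SE. In all, 37 lie left of 0, and MIF4GD, ATRX and ATM lie right of it.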

How the data were processed

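Per the labels' protocols, SMARTer mRNA libraries were made from 3 DEG-35 and 3 DMSO samples of MOLM-13. The submitters' processing notes name STAR (an aligner), featureCounts (a read counter) and DESeq2 (a count test), and the build hg19; their versions and settings are not given. The authors deposited 1 table that holds, per the file headers, log2 fold changes, p-values and adjusted p-values per gene; the numerator, the test and any shrinkage are not stated. The members and lists used here were chosen with earlier results of these data known.

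The authors' calls (adjusted p below 0.05) were used as deposited and nothing was tested anew. For the 2789 genes with p above 1.00e-04, adjusted p times rank over p lay within 0.1% of 15064, the number of tests taken as background. The implied SE is the absolute log2 fold change over the normal quantile of the two-sided p, as in a Wald test, which is assumed; it cannot be had for 3 genes with p of 0. Both steps were run on data simulated with the same formulas, which checks the code and not the assumed Wald test. Named genes were all listed histone genes and, for each of 4 partner lists, the up to 4 smallest adjusted p-values; NPAT, MIF4GD, ATRX, HIRA, UBN1, ATM and unlisted genes given by name were added after the values were seen. Symbols were matched to RefSeq (GRCh38.p14) and GENCODE 29 (GRCh38), used for sequences and neighbours, since the table has no coordinates. The software was Biopython 1.88, SciPy 1.17.1, NumPy 2.4.6, pandas 2.3.3 and Matplotlib 3.10.9 under Python 3.11.15.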

Additional observations from a re-analysis of the deposited data

How the results depend on the processing

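The table allows no refit: depth, scaling and replicate spread cannot be examined. No paired analysis was possible because the deposited table has no values per library, and for the same reason no replicate was left out. Exact symbols alone changed none of the counts given here. A shift of all listed log2 fold changes by 0.3 either way could turn no member, since each had changed by more than that. HIST2H2AC, at -2.84, lost its call at an adjusted p of 0.01 and with Bonferroni adjustment over 15064 tests (adjusted p = 1.00), and the other 5 members kept theirs under both. The stricter settings reduce counts by construction. Of the 14 listed replication-dependent genes (12 higher, 2 lower), 6 passed Bonferroni adjustment, 6 higher and 0 lower; 1 had an implied SE of at most 0.2, with 1 higher and 0 lower; and 0 lower were left at an adjusted p of 0.01. Of the 7 listed variants (6 lower), 4 had a log2 fold change of 1 or more in size, 3 of them lower. Of the 40 listed partner genes (37 lower, 3 higher), 14 did, 14 lower and 0 higher. The partners counted higher were 1 with Bonferroni adjustment, 1 with all values shifted down by 0.3 and 8 with all shifted up by 0.3.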

Other observations

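H3F3A and the pseudogene H3F3AP4 carry the same log2 fold change, -0.35, p-value and adjusted p-value to every deposited digit in the authors' deposited table. In all, 13 genes of the table share their values with another gene in this way.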
